A study of Homo sapiens with 4 samples.

Results

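Aminoacyl-tRNA synthetases load each amino acid onto its transfer RNA (tRNA). Probe sets were matched to a list of 36 synthetase genes through the platform's gene annotation, in which old symbols such as WARS count as WARS1. Of the 20 listed genes for cytosolic enzymes, 18 had a named probe set, with 20 probe sets in all among 53617 on the array. Of the 16 listed genes for mitochondrial enzymes, 0 had one. The listed mitochondrial enzymes and both subunits of the cytosolic phenylalanine enzyme (FARSA and FARSB) are therefore not analysed here. The cytosolic set is not compared with a mitochondrial one.

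The cells were MDA-MB-231Br, a derivative of the human breast cancer line MDA-MB-231, which is the name in the sample titles. One group of 2 arrays came from cells carrying a lentiviral control short hairpin RNA (shControl), and the other group of 2 arrays from cells carrying one against YTHDF3 (shYTHDF3), a cytoplasmic protein that binds N6-methyladenosine on RNA. Both groups went through lentiviral transduction and puromycin selection, and the comparison asks how transcript levels differ when YTHDF3 is targeted. The labels name a single hairpin label per group and do not say whether the 2 samples of a group were separate cultures, so p-values here reflect how much these arrays vary, and that variation may be technical only.

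In the cytosol each amino acid has its own synthetase, with 1 gene, EPRS1, encoding the enzymes for both glutamate and proline. Several of these enzymes sit together in the multi-synthetase complex, which is held by scaffold proteins such as AIMP1, and the rest work outside it. GARS1 and KARS1 make both the cytosolic and the mitochondrial form of their enzymes. When amino acids run short, uncharged tRNA activates the kinase GCN2 (EIF2AK4), translation slows and the transcription factor ATF4 is made. ATF4 raises the transcripts of many cytosolic synthetases, together with those for amino acid uptake and synthesis.

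A short DNA word, TGATGCAA, is the core of the C/EBP-ATF response element through which ATF4 and its partners act. RefSeq promoter windows (GRCh38.p14, 250 bases before to 50 after a gene's start) were at hand for 14 of the 18 measured synthetases. On either strand, 6 of these 14 genes held TGATGCAA, against 1.08% of 27305 genes with a window. The 6 stretches are shown because the word and its place can be set beside the response of each gene. Each runs in the direction of the gene, with the word in capitals, and in all but NARS1 the word lies on the opposite strand and reads TTGCATCA.
AARS1: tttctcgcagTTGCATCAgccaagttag
IARS1: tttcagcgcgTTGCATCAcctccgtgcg
MARS1: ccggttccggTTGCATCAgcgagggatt
CARS1: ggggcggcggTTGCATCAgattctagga
TARS1: cgcctttcgaTTGCATCAgctggtccag
NARS1: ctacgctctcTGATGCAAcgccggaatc
The stretches are chr16:70289676-70289703 (minus strand) for AARS1, chr9:92293693-92293720 (minus) for IARS1 and chr12:57488054-57488081 (plus) for MARS1. They are chr11:3057408-3057435 (minus) for CARS1, chr5:33440957-33440984 (plus) for TARS1 and chr18:57621805-57621832 (minus) for NARS1. Counting the first transcribed base as 1, the word began at position -187 in AARS1, -13 in IARS1, -4 in MARS1 and -2 in CARS1. It began at position 3 in TARS1 and 15 in NARS1, just inside the transcribed part.

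Transcripts for 3 synthetases fell in the knockdown arrays: WARS1, GARS1 and SARS1, the enzymes for tryptophan, glycine and serine. Values are log2 expression as deposited, and a gene was called when limma's adjusted p, taken over all 12755 genes tested, was under 0.05. WARS1 stood at 8.59 and 8.58 in the control arrays and at 7.67 and 7.56 in the knockdown arrays. Both knockdown arrays lay far below both control arrays, and the control pair differed by almost nothing. The log2 change was -0.97 (SE 0.13, n = 2 per group), which is 1.96-fold lower, with an adjusted p of 0.025 from limma. In bulk RNA such a difference cannot be told apart from one in the mix of cells, since fewer cells with a transcript and less of it per cell give the same value.

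GARS1 stood at 10.3 in both control arrays and at 9.40 and 9.52 in the knockdown arrays. SARS1 stood at 9.20 in both control arrays and at 8.38 and 8.45 in the knockdown arrays. Neither gene's groups overlapped, and each group's arrays lay close together. GARS1 changed by -0.83 (SE 0.13), which is 1.78-fold lower, with an adjusted p of 0.0457 from limma. SARS1 changed by -0.78 (SE 0.13), which is 1.72-fold lower, with an adjusted p of 0.0499, and was the last of the 96 called genes when ranked by p. The 95% intervals, from -1.27 to -0.67 for WARS1, from -1.13 to -0.53 for GARS1 and from -1.07 to -0.48 for SARS1, overlapped widely.

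Among the 18 tested synthetases 3 were called lower, against 0.666% of all tested genes. None was called higher by limma, against 0.0862% of all tested genes, and 2 were higher at an unadjusted p under 0.05. All 3 calls depended on having every array in the fit. With any 1 of the 4 arrays left out, limma called 0 synthetases. Each of those fits had only 1 array in 1 of the groups. The share of all genes called was then 0 without either control array, 0.282% without shYTHDF3 replicate 1 and 0.274% without shYTHDF3 replicate 2. The sizes hardly moved: WARS1 then ran from -1.02 to -0.92, GARS1 from -0.89 to -0.77 and SARS1 from -0.81 to -0.74. With each array centred on its median, or with no filter on low values, WARS1 alone passed, where 0.643% and 0.45% of all genes did. With the unnamed probe sets in the fit none of the 18 passed, where 0.0506% of rows did. Without adjustment 5 were lower and 1 higher at a p under 0.05 in that fit, against 4042 of 37532 rows in either direction. When limma's variance model followed intensity the same 3 genes passed and no other synthetase, where 2.94% of all genes did.

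**Figure D1:**
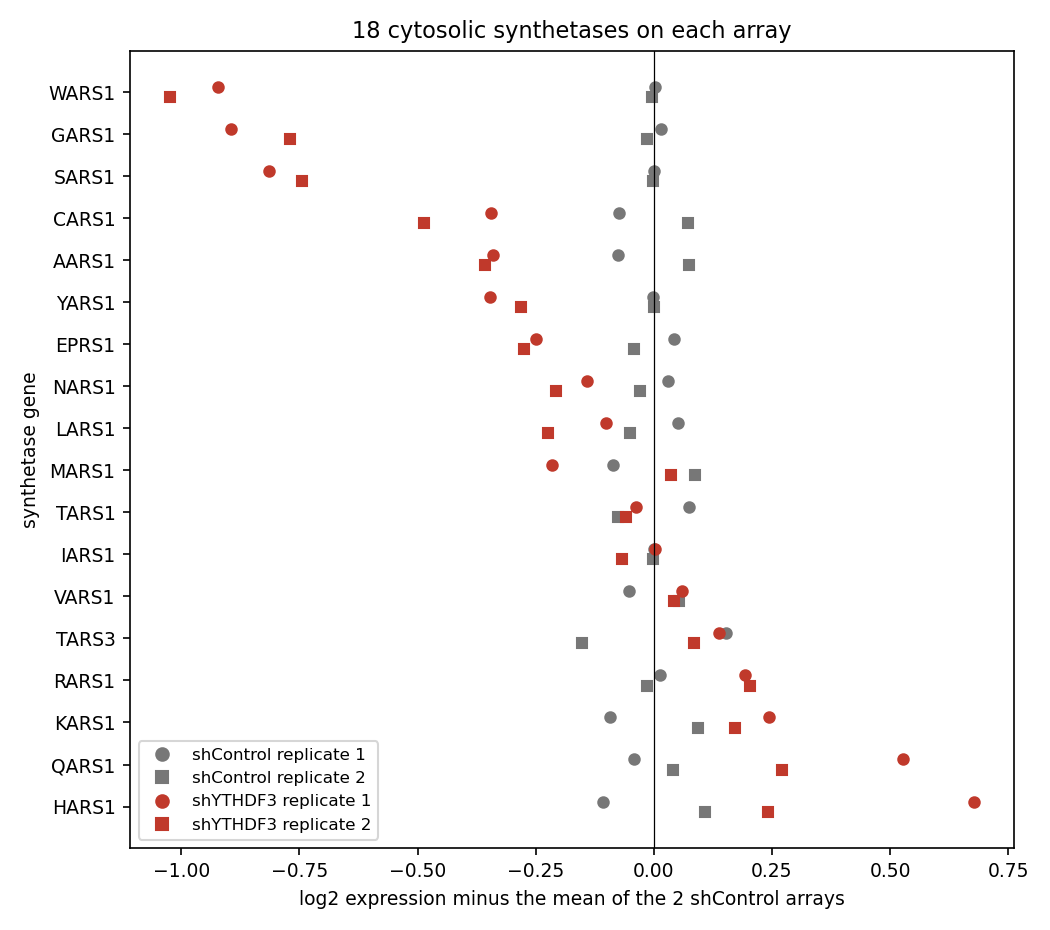
Log2 expression of the 18 measured synthetases on each of the 4 arrays, as the difference from the mean of the 2 shControl arrays of the same gene; grey marks are shControl, red marks shYTHDF3, and circles and squares replicates 1 and 2. The red marks of WARS1, GARS1 and SARS1 lie apart on the left, while those of QARS1 and HARS1 lie on the right with a wider spread.

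The remaining 15 enzymes did not pass, and their values ran in both directions. CARS1, the cysteine enzyme, stood at 7.22 and 7.37 in control and at 6.95 and 6.81 in knockdown arrays. AARS1, the alanine enzyme, stood at 10.3 and 10.4 in control and at 10.0 in both knockdown arrays. For both genes the knockdown arrays were the lower ones without overlap. The log2 differences were -0.42 (SE 0.14) for CARS1 and -0.35 (SE 0.13) for AARS1, with adjusted p-values of 0.226 and 0.287 from limma. YARS1, the tyrosine enzyme, differed by -0.31 (adjusted p = 0.315), with both control arrays at 7.75. EPRS1, with glutamate and proline activities, had -0.26, NARS1, the asparagine enzyme, -0.17, and LARS1, the leucine enzyme, -0.16. These 3 also had no overlap between groups.

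On the other side stood QARS1, the glutamine enzyme, and HARS1, the histidine enzyme. QARS1 measured 7.81 and 7.89 in control and 8.38 and 8.12 in knockdown arrays. HARS1 measured 5.35 and 5.56 in control and 6.13 and 5.70 in knockdown arrays. Both knockdown arrays were above both controls for each gene, with the higher value in replicate 1. The log2 differences were 0.40 (SE 0.14) and 0.46 (SE 0.18), with adjusted p-values of 0.266 and 0.301 from limma. KARS1, for lysine, had a difference of 0.21 and RARS1, for arginine, 0.20, again without overlap between groups. Single arrays weighed on both HARS1 and KARS1. HARS1 was 0.24 without shYTHDF3 replicate 1 and KARS1 was 0.12 without shControl replicate 1.

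Near zero, with overlapping groups, lay 5 members: MARS1 (-0.09), TARS1 (-0.05), IARS1 (-0.03), VARS1 (0.05) and TARS3 (0.11), the enzymes for methionine, threonine, isoleucine and valine and a second threonine enzyme. Their 95% intervals reached no further than -0.44 on the low side and 0.46 on the high side. A change of the size seen in WARS1, GARS1 or SARS1 lies outside the interval of each of the 5. The signs of these 5 small differences were not stable, and each turned with at least 1 array left out. In all, 9 of the 18 synthetases were lower and 4 higher without overlap between groups, against 22.8% and 22.6% of all tested genes. At an unadjusted p under 0.05 there were 6 lower and 2 higher, against 8.48% and 6.24%. The median log2 difference of the 18 was -0.13, and that of all tested genes 0.0040.

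Most synthetase genes had 1 named probe set, so each value above rests on a single one. WARS1 and VARS1 had a pair each. The WARS1 probe set used above is 16796694. The other, 16788417, stood at 3.24 and 3.83 in control and at 3.81 and 3.004 in knockdown arrays, near the array medians of 3.20 to 3.22. Its groups overlapped, with a difference of -0.13 (95% interval -0.82 to 0.56). With both WARS1 probe sets averaged the difference was -0.55 and the adjusted p 0.245 from limma. Both VARS1 probe sets differed by 0.05, with adjusted p-values of 0.905 and 0.922 in the fit with every probe set as its own row, where 0.897% of rows were called.

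**Figure D2:**
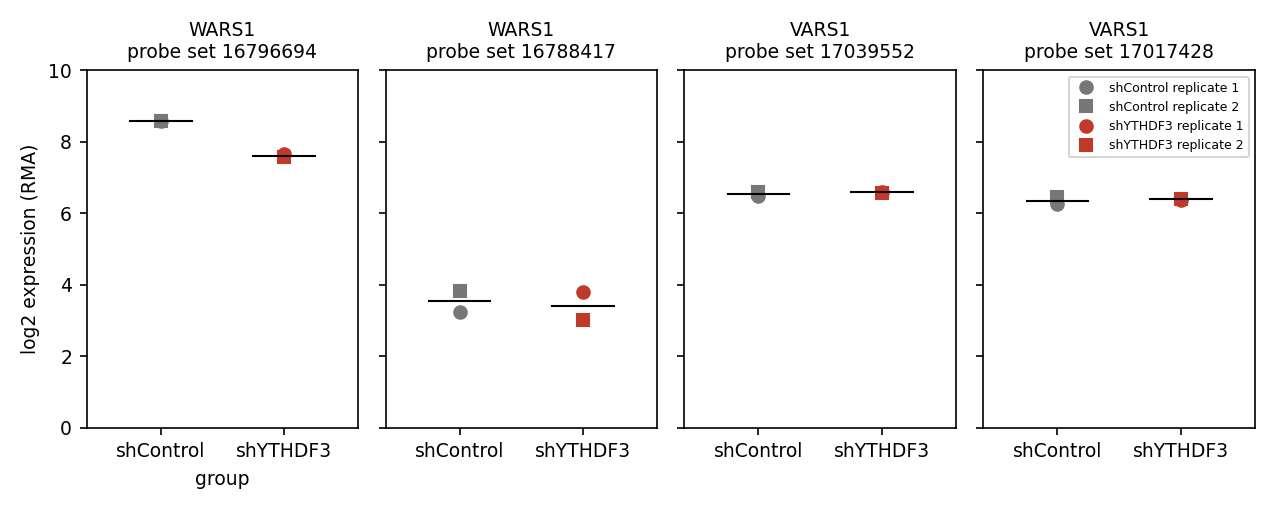
Log2 expression (RMA) of the 2 probe sets each of WARS1 and VARS1; marks are single arrays and black lines group means of 2. The first WARS1 probe set drops from 8.59 to 7.61 between groups while the second stays near 3.5, and both VARS1 probe sets lie level.

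The enzymes were then set out by how they work in the cell. Among the measured enzymes 7 belong to the multi-synthetase complex (EPRS1, IARS1, KARS1, LARS1, MARS1, QARS1 and RARS1). None of the 7 was called by limma in either direction, with 1 higher at an unadjusted p under 0.05, and their median was -0.03. All 3 called genes were among the 11 outside the complex, whose median was -0.31. Without adjustment 6 of the 11 were lower and 1 higher at a p under 0.05. The scaffold AIMP1 had a control mean of 9.62 ± 0.03 and a knockdown mean of 9.46 ± 0.02 (SD, n = 2), a difference of -0.16 that did not pass (adjusted p = 0.602 from limma). By catalytic fold, class I had 1 of 10 called and class II 2 of 8, with medians of -0.13 and -0.11. EPRS1, which encodes both the glutamate and the proline enzyme, was counted in class I only. Of all tested genes 0.666% were called lower and 0.0862% higher, and 8.48% and 6.24% were so without adjustment. The difference between these subgroups was not tested.

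Another division followed the list of synthetases that are known as transcripts raised with ATF4. Of the 13 measured genes on that list 3 were called lower and 0 higher, 6 had an unadjusted p under 0.05 and a negative sign against 0 with a positive one, and the median was -0.26. Of all tested genes 0.666% were called lower and 0.0862% higher. Without adjustment 8.48% of them were lower and 6.24% higher at a p under 0.05. Of these 13, VARS1 alone had a positive difference, joined by IARS1 at 0.0010 when each array was centred on its median. With 1 array left out IARS1, MARS1 and TARS1 reached 0.0027, 0.036 and 0.027, and VARS1 reached -0.0015. The 5 genes off the list (HARS1, KARS1, QARS1, RARS1 and TARS3) had a median of 0.21 and all had positive differences (TARS3 -0.042 without shControl replicate 2), though none was called by limma and 2 were higher at an unadjusted p under 0.05. Across the 4 pairs of 1 knockdown with 1 control array the median ran from -0.30 to -0.23 for the 13 and from 0.22 to 0.34 for the 5. Of all tested genes 49.2% had a negative difference. The list was drawn up with earlier results of these arrays known, so its counts are a description.

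**Figure D3:**
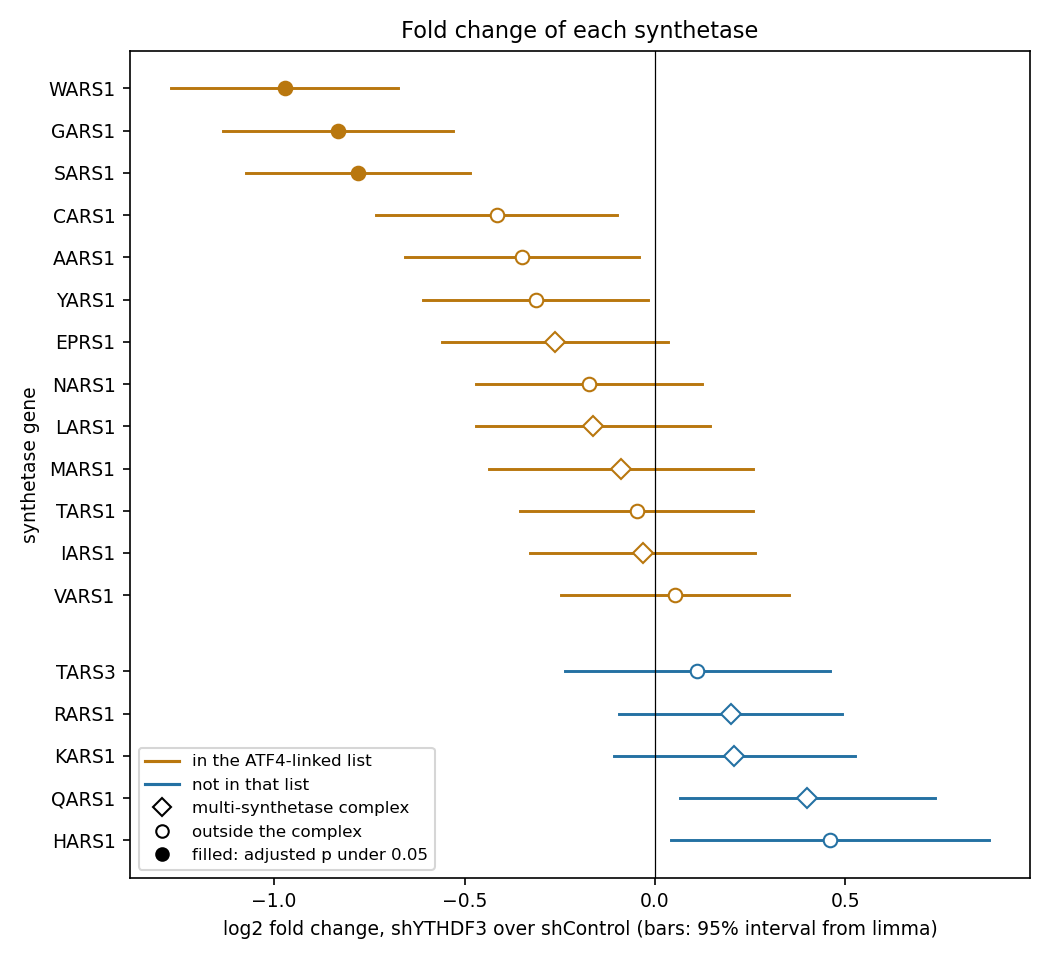
Log2 fold change (shYTHDF3 over shControl) of each synthetase with its 95% interval from limma, ordered by size within the 13 genes of the ATF4-linked list (orange) and the 5 others (blue); diamonds mark the multi-synthetase complex and filled marks an adjusted p under 0.05. The 3 filled marks are WARS1, GARS1 and SARS1, and all 5 blue marks lie above 0.

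The promoter words were then set beside the same differences. The 6 genes with TGATGCAA had log2 differences of -0.42 (CARS1), -0.35 (AARS1), -0.17 (NARS1), -0.09 (MARS1), -0.05 (TARS1) and -0.03 (IARS1), and none of the 6 was called. All 6 are on the ATF4-linked list. The windows of WARS1, GARS1 and SARS1, also on that list, held no TGATGCAA. Nor did those of EPRS1, on the list, and of HARS1, KARS1, QARS1 and RARS1, off it. Whether the word goes with the differences was not tested. The looser word TGATGNAA, of which TGATGCAA is 1 case, was held by 7 of the 14 synthetases against 4.46% of all genes, and the added gene was GARS1. In GARS1 it lay at chr7:30594835-30594862 (plus strand), in the window of the second of its 2 starts, and began at position -33.
GARS1: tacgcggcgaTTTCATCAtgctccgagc
The core of the interferon-stimulated response element, searched with its middle bases free, was found in 1 of the 14, WARS1, against 4.38% of all genes. WARS1 is known as an interferon-induced gene, and the match, in capitals, lay at chr14:100375383-100375412 (minus strand), in the window of the downstream of its 2 starts, and began at position -55.
WARS1: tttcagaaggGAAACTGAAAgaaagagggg
A match is only a match of letters, and windows without one say nothing about which factors act there.

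The 250 bases before the most upstream start are printed for the 3 genes that fell, since these carry the called change. None of the 3 words lay in the windows of these starts, on either strand.
WARS1: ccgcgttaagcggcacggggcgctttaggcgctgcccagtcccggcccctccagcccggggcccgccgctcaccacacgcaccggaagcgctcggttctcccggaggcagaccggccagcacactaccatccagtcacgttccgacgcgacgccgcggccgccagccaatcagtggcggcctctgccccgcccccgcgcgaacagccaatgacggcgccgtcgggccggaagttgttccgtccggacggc
GARS1: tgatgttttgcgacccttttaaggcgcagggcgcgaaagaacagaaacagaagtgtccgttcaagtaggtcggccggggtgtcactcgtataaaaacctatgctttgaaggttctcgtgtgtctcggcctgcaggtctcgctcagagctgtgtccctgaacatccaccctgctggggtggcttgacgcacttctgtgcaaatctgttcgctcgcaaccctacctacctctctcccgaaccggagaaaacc
SARS1: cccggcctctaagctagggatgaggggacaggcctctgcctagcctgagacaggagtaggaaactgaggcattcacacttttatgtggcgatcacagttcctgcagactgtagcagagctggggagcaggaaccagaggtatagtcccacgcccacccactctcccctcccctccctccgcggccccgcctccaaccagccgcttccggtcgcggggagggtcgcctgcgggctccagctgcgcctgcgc
They lie at chr14:100376328-100376577 (minus strand) for WARS1, chr7:30594485-30594734 (plus) for GARS1 and chr1:109213643-109213892 (plus) for SARS1. Their share of G and C was 73.6%, 54.4% and 65.2%.

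Several synthetase genes lie against other genes, and 9 tested genes lay within 1000 bases of 6 of them in RefSeq. The sharpest contrast was at MARS1, whose span overlaps that of DDIT3, the stress transcription factor CHOP, on the opposite strand. MARS1 stood at 8.10 and 8.28 in control and at 7.97 and 8.23 in knockdown arrays, while DDIT3 stood at 6.45 and 6.68 in control and at 3.28 and 3.70 in knockdown arrays. The MARS1 groups overlapped, and the DDIT3 groups lay far apart. DDIT3 changed by -3.07 (SE 0.18), with an adjusted p of 0.00062 from limma, and MARS1 by -0.09 (95% interval -0.44 to 0.26). WARS1 starts 157 bases from WDR25, whose difference was -0.20 (95% interval -0.83 to 0.44) and did not pass. YARS1 overlaps S100PBP, with a difference of -0.44 (adjusted p = 0.186) beside -0.31 for YARS1. AARS1 lies 357 bases from EXOSC6, an RNA exosome subunit, which had a difference of 0.40 (adjusted p = 0.222) beside -0.35 for AARS1. DDIT3 was the only one of the 9 neighbours that passed, against 0.666% of all tested genes called lower and 0.0862% higher. Its knockdown values stood not far above the array medians of 3.20 to 3.22.

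**Figure D4:**
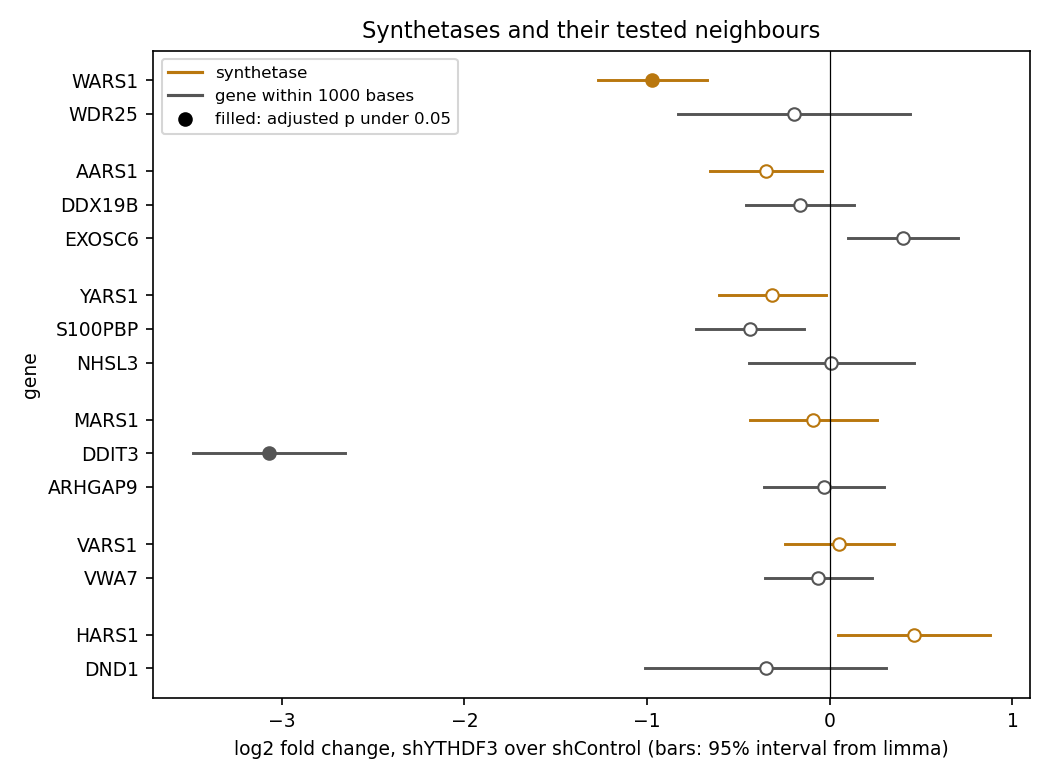
Log2 fold change with its 95% interval from limma for the 6 synthetases with a tested gene within 1000 bases (orange) and for those 9 neighbours (grey); filled marks have an adjusted p under 0.05. DDIT3, at -3.07, stands far to the left of MARS1, at -0.09.

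Other genes around tRNA charging were taken from lists. One list, labelled amino acid shortage sensing, holds the sensing kinase together with stress-response genes, so its count is not a measure of sensing. Among its 9 tested genes 4 fell and 0 rose, with adjusted p-values of up to 0.010 from limma. The 4 were DDIT3, SESN2, an inhibitor of mTORC1 (-2.56), TRIB3, a pseudokinase induced with CHOP (-1.75), and ASNS, which makes asparagine (-1.32). Over all tested genes 0.666% were called lower and 0.0862% higher. Without adjustment 6 of the 9 were lower at a p under 0.05, against 8.48% of all genes, and 0 higher, against 6.24%. The added genes were ATF3, a stress transcription factor (-1.33, adjusted p = 0.093), and IMPACT, an inhibitor of GCN2 (-0.64, adjusted p = 0.142). The 4 falls were larger on the log2 scale than that of WARS1. The kinase gene EIF2AK4 and the ATF4 transcript differed by 0.06 and 0.01 and did not pass. GCN1, also on the list, was higher by 0.31 without overlap between groups (adjusted p = 0.371 from limma). The arrays measured transcripts only, so GCN2 activity and ATF4 protein are not known from them. None of 7 tested cytosolic elongation factors was called (median 0.12), with 1 lower at an unadjusted p under 0.05, EEF1A2 at -0.41. Of 6 tested genes of tRNA editing, ligation and export none was called (median 0.05), with 1 higher at an unadjusted p under 0.05, the tRNA-processing nuclease ELAC2 at 0.31.

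On the mitochondrial side, partner genes had named probe sets, while none was named for the listed mitochondrial synthetases. Of 9 tested mitochondrial charging and tRNA-modifying genes none was called by limma, with 1 lower at an unadjusted p under 0.05, the methyltransferase TRMT5 at -0.33. GATB and QRSL1, subunits of the amidotransferase that makes mitochondrial glutaminyl-tRNA, differed by 0.03 and -0.015. The list's median was 0.03. Of 7 tested mitochondrial translation factors none was called and 0 had an unadjusted p under 0.05. Their median was -0.06, with MRRF, the ribosome recycling factor, at -0.40. Over all tested genes 0.666% were called lower and 0.0862% higher, and 8.48% and 6.24% were so without adjustment. With so few genes per list, counts this small do not set these lists apart from all genes. Amino acid transporters were not analysed here.

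**Figure D5:**
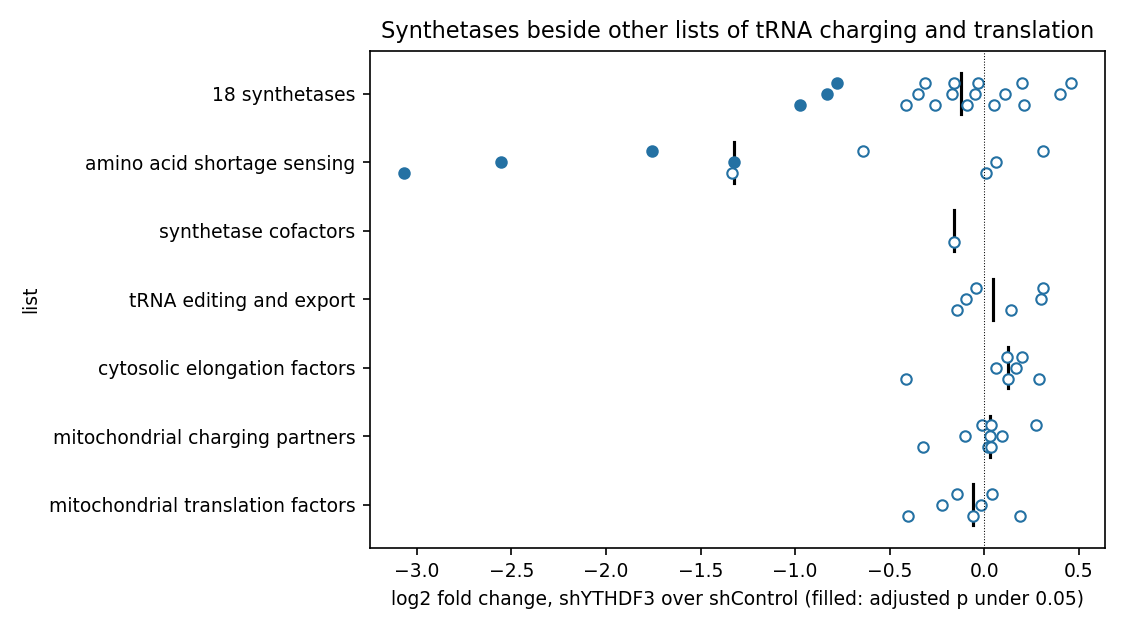
Log2 fold change of each tested gene in the 18 synthetases and in 6 lists around them; each mark is a gene, filled where the adjusted p was under 0.05, and black bars are list medians. Called genes appear in the synthetase row (3) and the amino acid shortage row (4).

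Across the array the 4 samples were alike. Over the tested genes arrays correlated at 0.992 within both groups and at 0.986 to 0.987 between groups. Of the mesenchymal markers of this line AXL, VIM, MET and CD44 stood between 8.06 and 11.4 on every array. Of the luminal markers the receptors ESR1 and PGR stood between 2.57 and 2.94, below the array medians, and ERBB3 between 2.75 and 3.34. GATA3 stood higher, between 4.44 and 4.77, as did FOXA1, between 4.65 and 5.32, and EPCAM and KRT19, between 6.37 and 7.07. Of 5 measured leukocyte and stromal markers LYZ and DCN lay below the filter and CD68, a lysosomal gene, stood between 10.4 and 10.7. PECAM1 stood between 2.29 and 2.90 and VWF between 2.72 and 3.08, both below the array medians. None of the 14 tested markers of the 3 lists was called by limma. Only 1, VWF at -0.34, was lower at an unadjusted p under 0.05, against 8.48% of all tested genes. No probe set was named for YTHDF3, so its level is not analysed here and the group labels have no check from it.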

How the data were processed

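RNA from 4 samples was hybridised to Affymetrix arrays, 2 per group, with groups and numbers taken from the sample titles. The authors deposited log2 expression values, 1 for each probe set on each array. Per the submitters' processing notes these come from RMA; version and settings were not given in the sources used. RMA equalises arrays and compresses weak signals, so shifts in total RNA are removed. Detection calls were absent from the table used, and precision is limited by having 4 arrays.

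The platform annotation gave 1 gene symbol for 16098 of the 53617 probe sets and none for the others, which named 14884 genes. Matching Entrez identifiers to RefSeq changed 0 symbols. For each gene the probe set of highest mean was kept, and genes whose mean was at or above the 30th percentile over all rows (2.54) were tested. All 18 synthetases were. The comparison used limma 3.58.1 under R 4.3.3 (lmFit and eBayes without covariates, 2-sided), adjusting p-values by Benjamini-Hochberg over 12755 genes. The code was run on simulated data with planted changes, drawn from the fit's own variance model. Such data meet limma's assumptions by design, so that run says nothing about how these arrays vary. The fit to the arrays had 2 residual and 5.30 prior degrees of freedom, and the smallest change called in any gene was 0.78 on the log2 scale. Permuting 2 against 2 arrays allows no 2-sided p under 0.333.

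The members and lists were chosen with earlier results of these data known, so lists are described by counts and medians with no set test. Values on every array are given for the called synthetases and the 4 others of smallest p. Of the other lists, called genes and the one of smallest p were to be named; further genes, and the neighbours, were named after their values were seen. Alternatives covered the filter, the choice of probe set, the rows fitted, normalization, the variance model, the replicate block, the threshold and leaving out each array.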

Additional observations from a re-analysis of the deposited data

How the results depend on the processing

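The count of 3 synthetases called lower was 1 with no filter, 1 with each array centred on its median and 0 with the unnamed probe sets in the fit. It ran from 0 to 0 with 1 array left out. Under the other alternatives apart from the replicate block it was 2 or 3, and the count called higher was 0 under all 16. The same numbers in both groups mark nothing in the labels, and the deviations of same-numbered arrays correlated at 0.043. With the replicate block the count was 0, and 11 of all genes were called against 96. The synthetases' median ran from -0.16 to -0.12 with 1 array left out and from -0.15 to -0.09 under the other settings. Signs turned only for small differences: IARS1 to 0.0010 with centred arrays, and with 1 array left out IARS1 ran from -0.068 to 0.0027, MARS1 from -0.22 to 0.036, TARS1 from -0.12 to 0.027, TARS3 from -0.042 to 0.26 and VARS1 from -0.0015 to 0.10. When the variance model followed intensity, 375 of all genes passed, the same 3 synthetases among them. The cause of these changes was not tested. Depth is not defined for arrays, and the number of arrays is the limit here.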
